A study of Glycine max with 4 samples.

Results

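Soybean leaf transcripts that were higher than in water in each of the salt with melatonin, melatonin and salt libraries are described here. They were chosen by their measured values. For each transcript the RPKM, a read count scaled by the length of the transcript and the total of the library, was computed from the deposited counts, and 0.1 was added. A transcript was kept when this value was at least 1 and at least 4 times that of the water library in each of the 3 treatments. Of the 55787 transcripts of 46367 loci in the table, 81 (0.145%) met these limits. Among these, 8 belong to 11 loci that were left out by name, which leaves 73 transcripts of 68 loci.

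The study treated SuiNong 28 soybean seedlings with melatonin, salt or both and sequenced RNA from leaves. The libraries were salt with melatonin (1% NaCl plus 100 µM melatonin, NaCl+Mt), melatonin (100 µM, Mt), salt (1% NaCl, NaCl) and water (H2O). Each condition had 1 library. The labels of all 4 libraries give the same temperature and day length in artificial light, whereas the general growth methods of the study describe a greenhouse in daylight, and the age of the seedlings differs between the methods and the results of the study. Melatonin reached the plants in water from a stock made with ethanol, and the sources used here do not say whether the NaCl and H2O plants received ethanol, so melatonin and its carrier cannot be told apart. The libraries held 36945028 (NaCl+Mt), 23479688 (Mt), 28868062 (NaCl) and 22908979 (H2O) reads on transcripts. As a check of the labelled tissue, rbcS (Glyma13g07610), the gene of the small subunit of Rubisco, had RPKM of 3530, 6992, 4429 and 1300 in NaCl+Mt, Mt, NaCl and H2O. The photosystem genes PsaF (Glyma05g00620) at 900, 1752, 1198 and 368 and PsbO (Glyma02g06830) at 99.3, 198, 149 and 48.4 had the same order, so these leaf genes too were lowest in H2O. Of the 23 loci in the study's list for the light reactions, 17 were lowest in H2O and 21 were highest in Mt. The share of all transcripts lowest in H2O was not counted. The summed RPKM of the 23 loci was 2889, 5931, 3211 and 1224 in NaCl+Mt, Mt, NaCl and H2O. Not every list of photosynthesis had this order. The 5 loci of the study's Calvin cycle list had median RPKM of 58.9, 74.9, 39.3 and 63.0 in NaCl+Mt, Mt, NaCl and H2O, lowest in NaCl. What the levels of leaf genes contribute to the values of the selected transcripts was not tested.

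Melatonin is an indoleamine that plants make from tryptophan, and supplied from outside it is studied as a protectant against stress. Salt places osmotic and ionic stress on leaves, to which plants respond in the cell wall, the cuticle, membrane lipids and protein folding. Fewer cells of a type and less RNA per cell cannot be told apart in RNA from whole leaves. With no replicate library, no difference could be set against the variation between plants, and no test was run. Standard errors (SE) and intervals given below cover the counting of reads only, and these reads carry no molecular identifiers, so copies of 1 molecule can be counted more than once.

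The selected transcripts took a small share of each library. Together they held 32751 reads in NaCl+Mt (0.0886% of the library), 45482 in Mt (0.194%), 49751 in NaCl (0.172%) and 3902 in H2O (0.0170%). Their median RPKM was 5.19 in NaCl+Mt, 13.2 in Mt, 9.65 in NaCl and 0.802 in H2O. The lowest and highest RPKM of a single one were 0.964 and 172 in NaCl+Mt, 1.75 and 338 in Mt, 0.962 and 295 in NaCl, and 0 and 42.7 in H2O. Thus the set ran from transcripts near the lower limit to abundant ones.

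The 3 comparisons with water chose the transcripts, so their folds are a description only, and they share the 1 H2O library. A low value in that library alone and a higher value after every treatment cannot be told apart. On the log2 scale of RPKM + 0.1, the median difference was 2.37 in NaCl+Mt:H2O, 3.89 in Mt:H2O and 2.95 in NaCl:H2O, against medians of −0.07, 0.01 and −0.14 over all transcripts with a value of at least 1 in either library. By these limits 0.73% of all transcripts passed in NaCl+Mt:H2O, 9.17% in Mt:H2O and 1.13% in NaCl:H2O. NaCl+Mt gave the smallest fold for 45 of the 73, NaCl for 19 and Mt for 9. The smallest fold of a transcript lay between 4.001 and 18.5 with a median of 4.78, was under 5 for 44 of them and at least 8 for 14.

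The limit of 4-fold divided transcripts with nearly equal values. Just inside it were Glyma16g18480.1 at a smallest fold of 4.001, Glyma05g04920.1 at 4.02 and Glyma17g35530.1 at 4.03. Just outside were Glyma13g40200.1 at 3.996 (NaCl+Mt), Glyma12g10670.1 at 3.996 (Mt) and Glyma19g36500.1 at 3.99 (Mt).

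**Figure D1:**
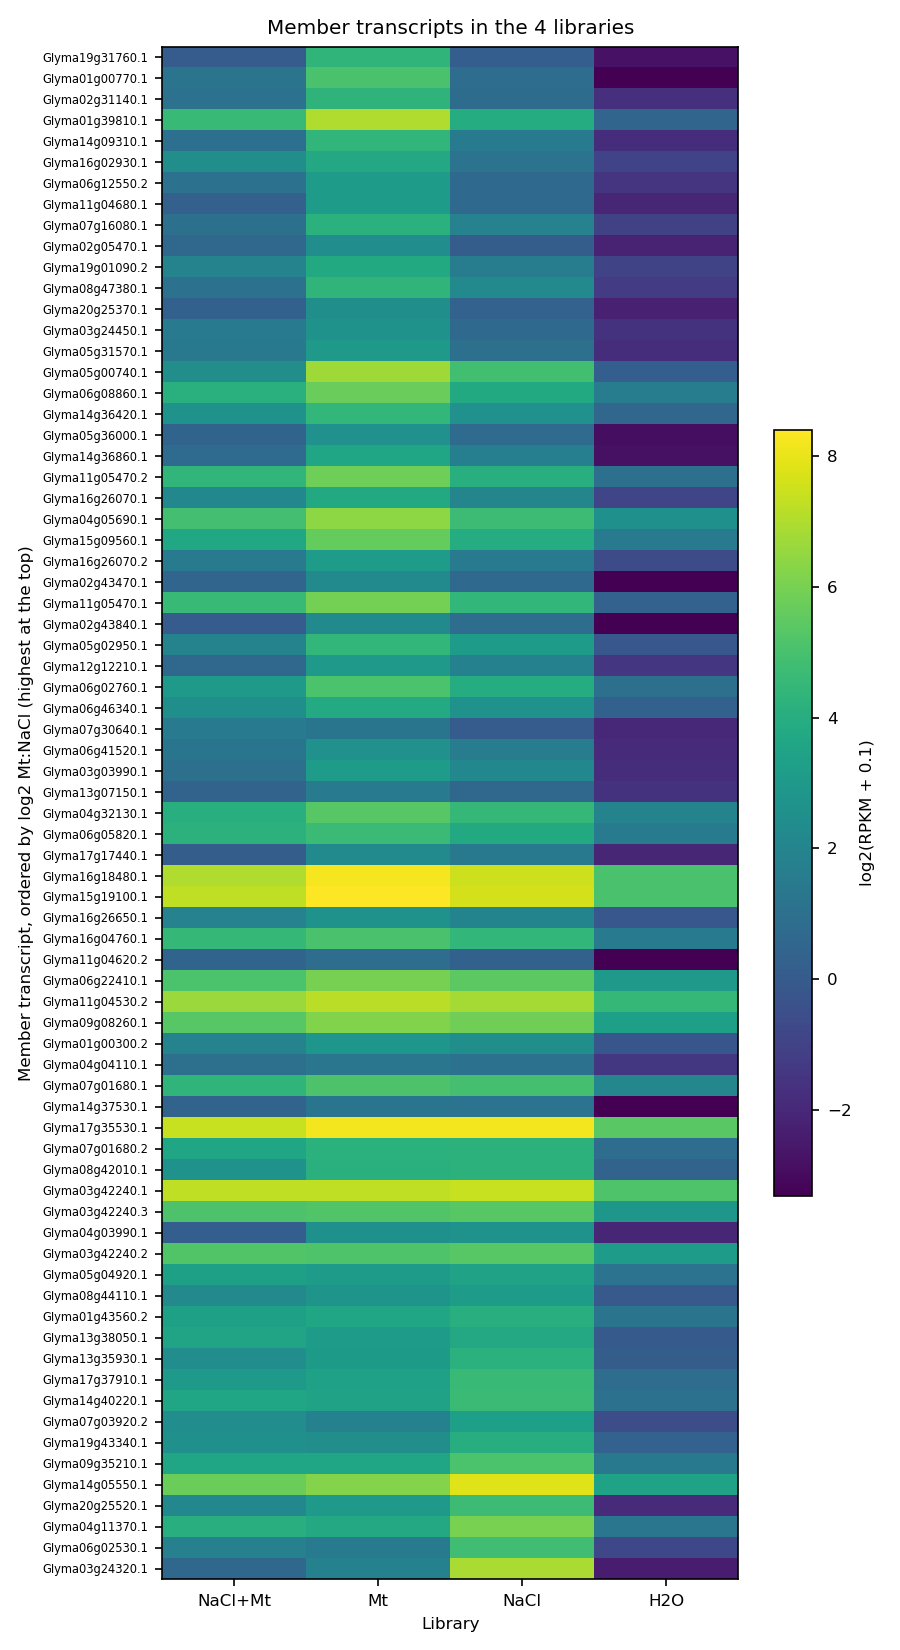
Level of each of the 73 transcripts (rows, ordered by log2 Mt:NaCl) in the NaCl+Mt, Mt, NaCl and H2O libraries (columns), as log2 of RPKM + 0.1 in colour. H2O is the darkest column in every row by the choice of the transcripts, the upper rows are brightest in Mt and the lowest rows are brightest in NaCl.

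The study lists 28 transcripts as higher in all treatments and gives most of them a description by similarity to other plants. The study took a fold of at least 2 on its own RPKM, so its limits differ from the 4-fold and the limit on level used here. At a fold of at least 2 with the level limit kept, 632 transcripts passed here besides the loci left out by name. That is more than the 28, and the sources used here do not say how the study's list became shorter. Of the 28, 10 belong to the loci left out by name and 16, of 15 loci, are among the 73. That list was drawn from these same libraries and is no independent evidence. The 16 are the only ones with a description in the sources used here, and 5 of those are described as unknown protein. Roles named below are those known in Arabidopsis unless said otherwise. Within the 16, 11 were highest in Mt and 5 in NaCl, and the shares of all transcripts highest in each were not counted.

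Arabinogalactan proteins are heavily glycosylated proteins of the cell surface and wall. The AGP17 transcript, Glyma01g39810.1, had 647 reads in NaCl+Mt, 2153 in Mt, 314 in NaCl and 22 in H2O, or 24.2, 127, 15.04 and 1.33 RPKM. It was the annotated transcript with the highest level in Mt, and NaCl+Mt lay nearer to NaCl than to Mt. The log2 difference was −2.38 (SE 0.06) in NaCl+Mt:Mt and 0.68 (SE 0.10) in NaCl+Mt:NaCl. AGP18, Glyma11g05470.1, had 24.4, 62.6, 21.3 and 1.18 RPKM in NaCl+Mt, Mt, NaCl and H2O. A further transcript of that locus, Glyma11g05470.2, had 20.9, 56.8, 16.2 and 1.88 RPKM. Both transcripts of the AGP18 locus thus had the order seen for AGP17, with Mt highest, then NaCl+Mt, NaCl and H2O, and as transcripts of 1 locus they are not independent of each other.

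A transcript each of the CER1, SEC14 family and LOX1 loci, which are named for roles in lipids, was highest in NaCl. CER1 is needed for the alkanes of cuticular wax. The putative CER1 transcript, Glyma03g24320.1, had 106 reads in NaCl+Mt, 166 in Mt, 7010 in NaCl and 4 in H2O. At 1.42, 3.502, 120.3 and 0.0865 RPKM, the NaCl library stood far above the other 3. Its log2 difference in NaCl+Mt:NaCl, −6.31 (SE 0.13), was the lowest of all 73, and NaCl+Mt also lay below Mt (−1.24, SE 0.17). SEC14 proteins carry phosphoinositides and other lipids between membranes, as first known from yeast. The SEC14 family transcript, Glyma04g11370.1, had 16.0, 13.3, 65.9 and 2.32 RPKM in NaCl+Mt, Mt, NaCl and H2O. It too was highest in NaCl, with a log2 difference of −2.04 (SE 0.07) in NaCl+Mt:NaCl, whereas NaCl+Mt and Mt were close to each other (0.27, SE 0.10).

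Lipoxygenases oxygenate polyunsaturated fatty acids. Glyma07g03920.2, a transcript of the LOX1 locus that the study lists as unknown protein, had 500 reads in NaCl+Mt, 209 in Mt, 726 in NaCl and 35 in H2O. The transcript described as LOX1, Glyma07g03920.1, had 446, 174, 594 and 34 reads in the same order of libraries. Its smallest fold, 3.67 in Mt, left it outside the limits although both transcripts had the same order of libraries. The second transcript of the study's list that was neither kept nor left out by name was Glyma03g02130.1, a subtilisin-like serine protease (SBT1.1). It had 35 reads in NaCl+Mt, 251 in Mt, 19 in NaCl and 0 in H2O, and its levels of 0.422 RPKM in NaCl+Mt and 0.293 RPKM in NaCl were too low. Its fold in NaCl, 3.93, was also under the limit.

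Among enzymes, a dihydroflavonol 4-reductase family transcript, Glyma06g41520.1, had 2.27, 6.06, 3.001 and 0.164 RPKM in NaCl+Mt, Mt, NaCl and H2O. Dihydroflavonol reductases act in the synthesis of anthocyanins, and members of the family have other substrates. Glyma03g24450.1, described as an iron-binding oxidoreductase, had 178, 252, 72 and 9 reads. It was among the 3 transcripts with the highest NaCl+Mt:NaCl, at 0.91 (SE 0.19). Glyma14g36860.1, described as a copper-binding protein, had 57 reads in NaCl+Mt, 268 in Mt, 91 in NaCl and 1 in H2O. With the 1 read in H2O, the ratio was 261 in Mt:H2O with a 95% interval of 46.5 to 10366, so the size of this difference is hardly known. Its NaCl+Mt:Mt, which does not rest on H2O, was −2.81 (SE 0.20).

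Apyrases split phosphate from nucleoside triphosphates and diphosphates. The APY2 transcript, Glyma16g04760.1, had 22.1, 32.5, 21.3 and 2.66 RPKM in NaCl+Mt, Mt, NaCl and H2O. The 3 treated libraries lay within 2-fold of each other. The same held for the lyase transcript Glyma13g38050.1, at 11.4, 8.56, 13.2 and 0.894 RPKM, and for a DNAJ transcript, Glyma06g05820.1, at 18.2, 25.5, 13.8 and 2.81 RPKM. DNAJ proteins are co-chaperones of Hsp70 in protein folding. SCPL27, Glyma16g26070.1, is described as a serine carboxypeptidase-like protein and had 4.27, 13.7, 3.97 and 0.442 RPKM, with Mt above the rest and NaCl+Mt close to NaCl (log2 0.10, SE 0.14).

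The remaining transcripts described as unknown protein were Glyma05g36000.1, Glyma07g01680.2 and Glyma19g01090.2. Glyma05g36000.1 had 59, 178, 59 and 1 reads in NaCl+Mt, Mt, NaCl and H2O. Glyma19g01090.2 had 136, 321, 85 and 10 reads. Both were highest in Mt, with NaCl+Mt:Mt of −2.16 (SE 0.20) for Glyma05g36000.1 and −1.86 (SE 0.14) for Glyma19g01090.2. Glyma07g01680.2 had 386, 375, 468 and 35 reads and was within 2-fold among the treatments.

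**Figure D2:**
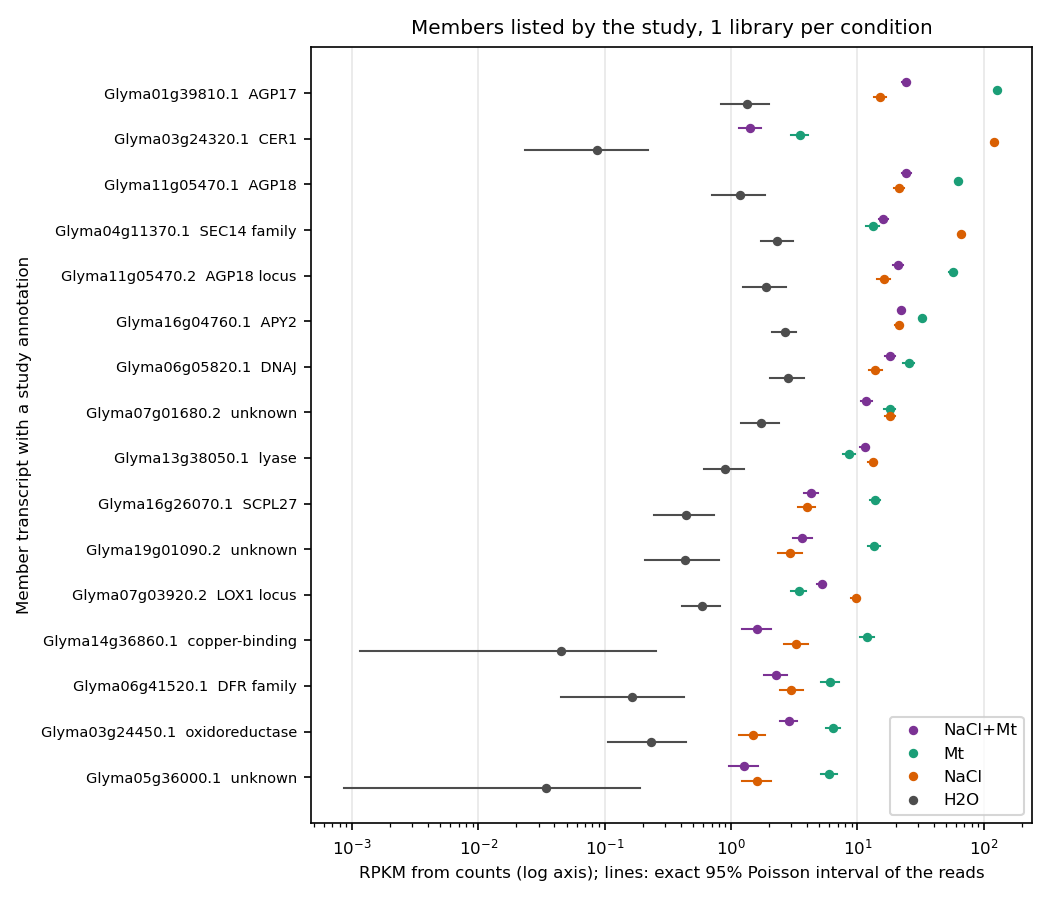
RPKM (log axis) of the 16 transcripts in the study's list, 1 point for each library, with lines for the exact 95% Poisson interval of the reads. Every H2O point lies left of the treated points, as the choice requires, with NaCl far right of the others only for CER1 (120.3 RPKM) and SEC14 (65.9 RPKM), and wide H2O intervals where 1 read was counted.

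The other 57 transcripts carry no description in the sources used here. The most abundant were short. Glyma17g35530.1 (267 bases) had 172, 293, 295 and 42.7 RPKM in NaCl+Mt, Mt, NaCl and H2O. Glyma15g19100.1 (360 bases) had 155, 338, 201 and 32.5 RPKM, and Glyma16g18480.1 (291 bases) had 129.9, 307, 180.0 and 32.4 RPKM. These 3 had over 200 reads even in H2O, so counting error was small, yet Glyma16g18480.1 and Glyma17g35530.1 are also among the 3 transcripts just inside the limit. Glyma03g42240.1 had 153, 157, 169 and 36.0 RPKM. It was the most even of the abundant transcripts, with NaCl+Mt:Mt at −0.04 (SE 0.04), a sign that turned with TMM scaling (0.08), and NaCl+Mt:NaCl at −0.14 (SE 0.04). Glyma11g04530.2 with 101, 146, 113 and 22.1 RPKM and Glyma09g08260.1 with 41.4, 73.0, 58.2 and 9.59 RPKM also had the treatments within 2-fold of each other.

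Transcripts under 300 bases made up 11 of the 73 (15.1%), against 1150 (3.17%) of the 36310 transcripts with a value of at least 1 in each treated library. Median lengths were 921 bases for the 73, with a range of 162 to 2607, and 1074 bases for the 36310. A read is worth more RPKM on a short transcript, so a value of 1 is reached there with few reads. This limit on level applied to the 36310 transcripts as well as to the 73. Why the share of short transcripts differed between these sets was not tested. Of the 73, 5 had 0 reads in H2O, 18 had 1 to 3 reads, 50 had more than 3 and 12 had at least 100.

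The 5 with 0 reads in H2O were Glyma01g00770.1, Glyma02g43470.1, Glyma02g43840.1, Glyma11g04620.2 and Glyma14g37530.1, named here after their values were seen except for the first. Glyma01g00770.1 had 16 reads in NaCl+Mt, 151 in Mt, 10 in NaCl and 0 in H2O. Set against a floor of 3 counts in H2O, it was at least 3.31-fold higher in NaCl+Mt, at least 49.1-fold in Mt and at least 2.65-fold in NaCl. The other 4 had 7 to 30 reads in each treated library. Against the same floor, Glyma14g37530.1 was at least 4.55-fold higher in NaCl+Mt, at least 8.46-fold in Mt and at least 7.94-fold in NaCl. For the others the bound was below 4-fold in at least 1 treatment, the lowest being 1.65-fold. When every count under 3 was set to 3, 60 of the 73 passed on the scale of RPKM + 0.1, and all 5 with 0 reads in H2O, Glyma14g37530.1 included, were among those that did not.

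Treatments were then compared with each other among the 73. These comparisons use the same libraries that chose the transcripts, so the order of the treatments is a description as well. Mt was the highest treatment for 50 transcripts, by over 2-fold above the next for 32. NaCl was highest for 22, by over 2-fold for 10. NaCl+Mt was highest for 1, Glyma07g30640.1, with 29, 15, 8 and 1 reads in NaCl+Mt, Mt, NaCl and H2O, where Mt was within counting error (log2 NaCl+Mt:Mt 0.29, SE 0.44). All 3 treatments lay within 2-fold of each other for 20. Over the 36310 transcripts with a value of at least 1 in each treated library, NaCl+Mt was highest for 31.9%. The shares of these led by Mt or NaCl, or within 2-fold, were not counted, so the other counts have no background beside them.

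In NaCl+Mt:NaCl, which asks what melatonin changed in the presence of salt, 2 of the 73 were higher by 2-fold or more and 18 (24.7%) were lower by 2-fold or more. Over all 40082 transcripts with a value of at least 1 in either library, 10.4% were higher and 4.58% lower by this limit. The median log2 difference was −0.37 for the 73 and 0.06 for all. In NaCl+Mt:Mt, which asks what salt changed in the presence of melatonin, 0 of the 73 were higher by 2-fold or more and 42 (57.5%) were lower by 2-fold or more. Over all 43084 transcripts, 11% were higher and 19.4% lower. The median was −1.26 for the 73 and −0.10 for all. The count of 42 included 17 transcripts with 3 reads or fewer in H2O, since 25 of the 50 with more than 3 reads were lower.

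NaCl+Mt lay below both Mt and NaCl for 45 of the 73 (61.6%), between them for 27 (37.0%) and above both for 1 (1.37%). Over the 36310 transcripts with a value of at least 1 in each treated library, it was below both for 28.8%, between them for 39.3% and above both for 31.9%. For 9 of the 73, NaCl+Mt was at least 2-fold below each single treatment. The clearest by reads was Glyma05g00740.1, with 280 reads in NaCl+Mt, 3466 in Mt, 1146 in NaCl and 33 in H2O, or 5.52, 107, 28.9 and 1.05 RPKM. Its log2 difference was −4.26 (SE 0.09) in NaCl+Mt:Mt and −2.37 (SE 0.09) in NaCl+Mt:NaCl. This transcript was thus higher in each single treatment than in their combination, which was still 2.29 (SE 0.24) above H2O on the log2 scale.

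**Figure D3:**
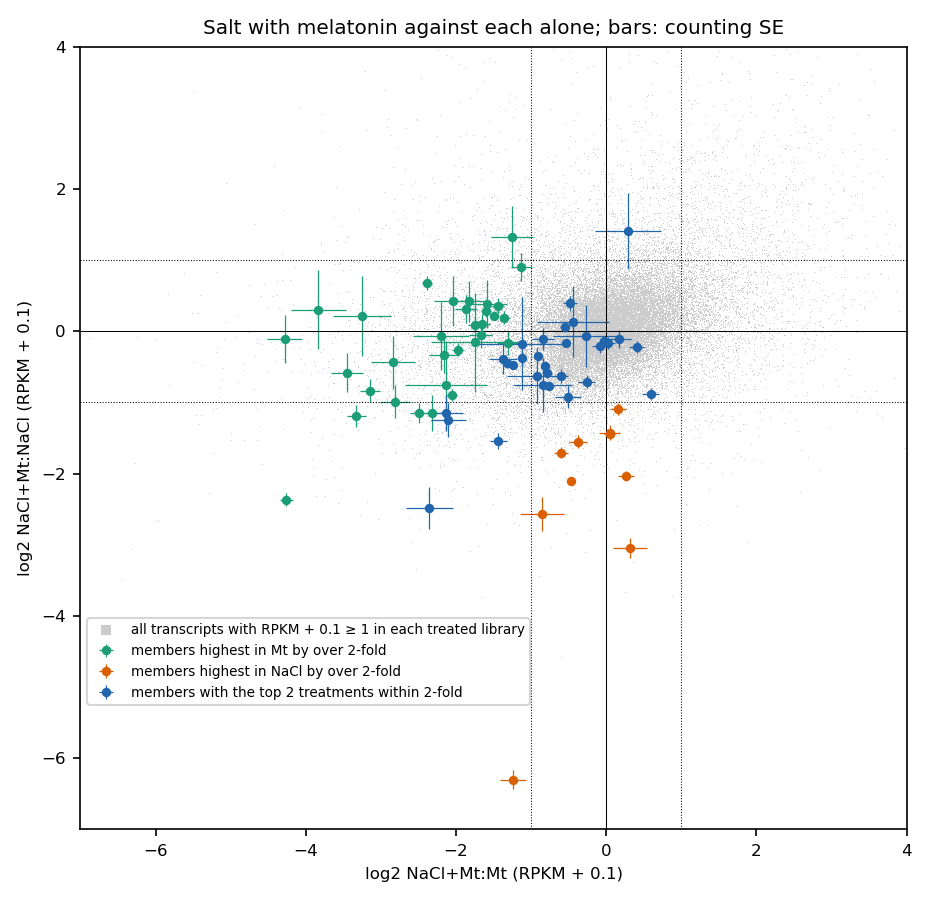
Log2 difference of RPKM + 0.1 in NaCl+Mt:Mt (x axis) and NaCl+Mt:NaCl (y axis) for the 73 transcripts, with bars of 1 counting SE. The 36310 transcripts are in grey (116 of these lie outside the axes). Colours mark 32 transcripts highest in Mt by over 2-fold, 10 highest in NaCl by over 2-fold, and 31 with the highest treatment within 2-fold of the next. Dotted lines mark 2-fold; 42 of the 73 lie left of the left line, 18 below the lower line, and the lowest point is CER1 at −6.31.

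The 32 transcripts led by Mt had a median log2 NaCl+Mt:NaCl of −0.06, and 4 of them were at least 2-fold lower in it. Besides AGP17, AGP18 and SCPL27, they included Glyma04g05690.1, with 30.2, 85.4, 25.9 and 5.76 RPKM in NaCl+Mt, Mt, NaCl and H2O. Glyma19g31760.1 had 33 reads in NaCl+Mt, 448 in Mt, 28 in NaCl and 1 in H2O, the lowest NaCl+Mt:Mt of all (−4.28, SE 0.24). Glyma01g00770.1 followed Glyma05g00740.1 with −3.83 (SE 0.36). For Glyma19g31760.1 and Glyma01g00770.1 the levels in NaCl+Mt and NaCl differed by no more than counting error (−0.11, SE 0.34, and 0.31, SE 0.55). Glyma16g02930.1 had 43, 66, 13 and 2 reads and was one of the 2 transcripts over 2-fold higher in NaCl+Mt:NaCl (1.33, SE 0.44), the other being Glyma07g30640.1 (1.41, SE 0.53). Both rest on 13 reads or fewer in NaCl.

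The 10 transcripts led by NaCl had a median log2 NaCl+Mt:Mt of −0.16, and only CER1 was at least 2-fold lower in it. The most abundant was Glyma14g05550.1, with 53.7, 74.2, 230.2 and 10.8 RPKM in NaCl+Mt, Mt, NaCl and H2O. Its NaCl+Mt:NaCl was −2.10 (SE 0.04), and its level in NaCl+Mt was near that in Mt. Glyma06g02530.1 had 3.32, 2.64, 28.1 and 0.474 RPKM, with NaCl+Mt:NaCl of −3.04 (SE 0.14). Glyma20g25520.1, of 267 bases, had 43, 50, 203 and 1 reads and a NaCl+Mt:NaCl of −2.57 (SE 0.24). Glyma14g40220.1 had 11.9, 10.7, 25.6 and 1.97 RPKM. In the 9 besides CER1, NaCl stood over 2-fold above the others and NaCl+Mt lay within 2-fold of Mt.

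The value with both agents can also be set against the sum of the single differences on the log2 scale, as NaCl+Mt:NaCl minus Mt:H2O. It was below 0 for all 73, with a median of −4.20 and a range of −10.6 to −1.79, against a median of 0.08 over the 36310. H2O enters this value and chose the transcripts, which makes it a description only. Mt:H2O is subtracted and was at least 4-fold for all 73 by that choice, so values below 0 were favoured from the start. How many of the 36310 lay below 0 was not counted.

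Of the 68 loci, 53 have 1 transcript in the table and 4 have several among the 73. A further 11 transcripts of 11 of the loci were not selected, and 9 of them were higher than H2O in each treatment, 8 by at least 2-fold. The most abundant, Glyma11g04530.1, had 308, 548, 303 and 85.4 RPKM in NaCl+Mt, Mt, NaCl and H2O, a smallest fold of 3.55. The selected Glyma01g00300.2, of 171 bases, had 23, 28, 28 and 3 reads in NaCl+Mt, Mt, NaCl and H2O, against 438, 507, 451 and 392 reads for Glyma01g00300.1 of the same locus. With its reads summed and scaled, that locus had folds over H2O of 0.726 in NaCl+Mt, 1.32 in Mt and 0.963 in NaCl, and so did not have the pattern of the selected transcript. Glyma07g30640.2 with 24, 18, 17 and 12 reads and Glyma11g04620.1 with 9, 7, 19 and 9 reads likewise did not have the pattern of the selected transcript. The RPKM formula of the study takes only uniquely mapped reads, whereas the table heads its counts as mapped, and how reads shared by transcripts of a locus were divided is not given in the sources used here. With the reads of all transcripts of a locus summed over its longest transcript, 61 of the 68 loci passed the limits and 7 did not, namely Glyma01g00300, Glyma01g43560, Glyma06g12550, Glyma07g30640, Glyma11g04530, Glyma11g04620 and Glyma19g01090.

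**Figure D4:**
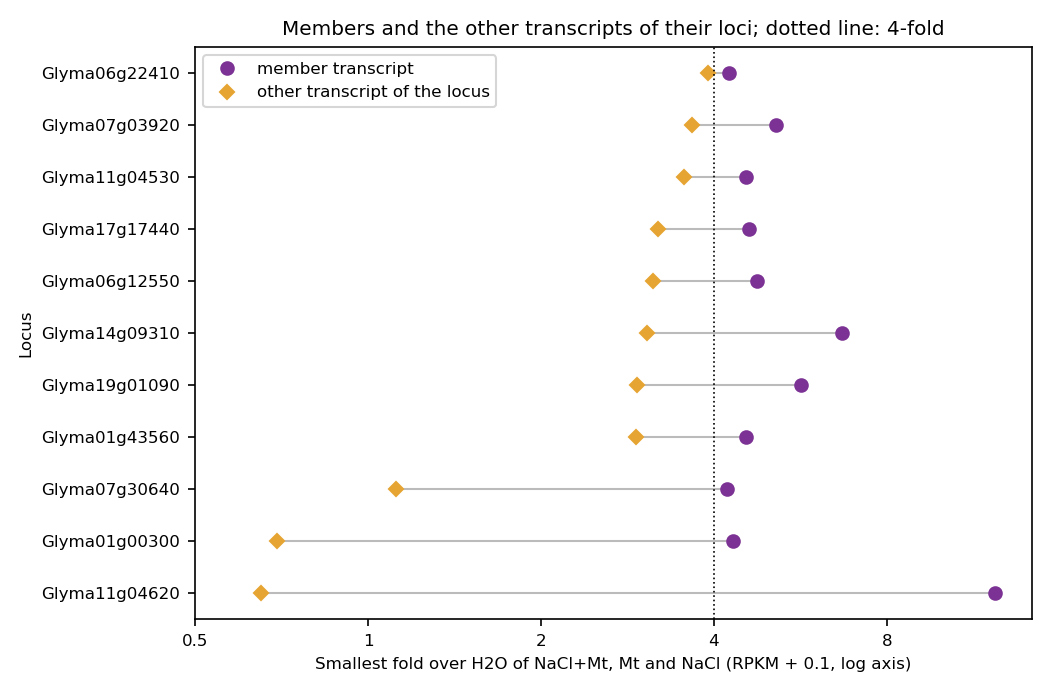
Smallest fold over H2O among the 3 treatments (log axis, RPKM + 0.1) for the selected transcript (circles) and the unselected one (diamonds) of 11 loci; the dotted line marks 4-fold. The diamonds lie between 0.652 and 3.90, and those of Glyma11g04620, Glyma01g00300 and Glyma07g30640 lie far from their circles.

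The selected loci were spread over the genome. The number after Glyma in a locus name gives its chromosome. Chromosome 6 held the most, 8 of 68 loci (11.8%), against 5.80% of the 28254 loci with a value of at least 1 in each treated library. Chromosome 14 held 6 (8.82%, against 3.87%) and chromosome 16 held 5 (7.35%, against 3.49%). Chromosomes 10 and 18 held 0, against 5.45% and 4.84% of those loci. Some of the loci left out by name lie on chromosome 18, and the 28254 were not reduced in this way. The 0 for chromosome 18 can therefore come from that choice. Locus names rise in steps of 10 along a chromosome. There were 0 pairs of selected loci within 5 steps and 5 pairs within 20. The closest were Glyma11g04620 and Glyma11g04680 at 6 steps. CER1 and the iron-binding oxidoreductase on chromosome 3 lie 13 steps apart. The pairs among equally many other loci were not counted, so clustering cannot be judged from these counts. Pairs with a locus left out by name were not counted, so these counts depend on that choice. The pathway lists of the study's annotation are 10 lists with 211 loci. They cover photosynthesis, carbon and amino acid metabolism, ascorbate, fatty acids, DNA replication and the cell cycle. They held 0 of the 68 loci and 1 of the loci left out by name. As these 211 are a small part of the 46367 loci in the table, few or none of 68 loci would lie there by share alone. The 0 is not read as a trait of the selected loci.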

How the data were processed

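Leaf RNA was sequenced on an Illumina instrument. The authors removed adaptors and poor reads and mapped the rest to the soybean genome with BWA (version 0.7.4 per the submitters' processing notes); the build is not given in the sources used here. They deposited mapped read counts and RPKM for each transcript. RPKM was recomputed from the deposited counts, the transcript length and the total of each count column, because the deposited RPKM lists 0 for 23 of the 73 selected transcripts in H2O and 2 in NaCl although reads were counted.

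Log2 differences used RPKM + 0.1, with a delta-method SE from Poisson counts. Ratios with 1 to 3 reads in H2O have exact 95% intervals, and 0 reads were set against a floor of 3 counts, an RPKM of 0.0812 (NaCl+Mt) to 0.131 (H2O) on 1000 bases. With 1 library per condition no test was possible. The selected transcripts, the lists and the settings were chosen with earlier results of these data known.

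Transcripts are named by rule: those in the study's list or its pathway lists, the 10 with the highest mean RPKM over the treatments, the 10 with over 3 reads in H2O and the largest smallest log2, the 3 highest and 3 lowest in NaCl+Mt:NaCl and in NaCl+Mt:Mt, and the 3 on each side of the limit. Apart from the study's list and the limit, the rule takes 1 transcript per locus, that with the highest mean RPKM. Where another is named, its value stood out after the data were seen. The names of the study's loci matched 0 entries of the RefSeq gene table used here, so gene families, promoters and sequences were not analysed.

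Alternatives were pseudocounts of 0.01 and 1, TMM factors (edgeR 4.0.16), median-of-ratios factors (DESeq2 1.42.0), the deposited RPKM, counts under 3 set to 3, other folds and limits on level, 1 transcript per locus, and the transcripts with over 3 reads in H2O. Leaving out each treated library and summing reads per locus were chosen after seeing the data. Scripts ran in Python 3.11.15 (pandas 2.3.3, numpy 2.4.6, scipy 1.17.1, matplotlib 3.10.9) and R 4.3.3, and the selection was checked on simulated counts.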

Additional observations from a re-analysis of the deposited data

Results flagged for a closer look

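In the values below, an agent went with a higher level when given alone against H2O and with a lower level when added to the other agent. The difference between the 2 situations was not tested, as each condition had 1 library, and the direction against H2O was fixed by how the transcripts were chosen. For all 73 transcripts the median log2 difference was −0.37 in NaCl+Mt:NaCl, where melatonin was added to salt, and −1.26 in NaCl+Mt:Mt, where salt was added to melatonin.

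Among the transcripts named by rule, those at least 4-fold lower in NaCl+Mt:NaCl were CER1, Glyma03g24320.1 (−6.31), Glyma06g02530.1 (−3.04), Glyma20g25520.1 (−2.57), Glyma05g00740.1 (−2.37), Glyma14g05550.1 (−2.10) and SEC14, Glyma04g11370.1 (−2.04). Those at least 4-fold lower in NaCl+Mt:Mt were Glyma19g31760.1 (−4.28), Glyma05g00740.1 (−4.26), Glyma01g00770.1 (−3.83), the copper-binding Glyma14g36860.1 (−2.81), AGP17, Glyma01g39810.1 (−2.38), and Glyma05g36000.1 (−2.16). Glyma05g00740.1 was the one given for both. Glyma02g43840.1, named in the report for its 0 reads in H2O, had −2.13 in NaCl+Mt:Mt.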

How the results depend on the processing

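The number of selected transcripts depended on the settings. Against 73, it was 15 with a pseudocount of 1, 149 with the deposited RPKM (65 of the 73 among them), 632, 169 and 14 with folds of at least 2, 3 and 8, 143 with no limit on level and 35 with a value of at least 5. Requiring only 2 treatments, chosen after seeing the data, gave 311 without NaCl+Mt, 118 without Mt and 290 without NaCl, by construction. The number was 60 to 89 under the other alternatives. The median in NaCl+Mt:H2O was 1.67 with a pseudocount of 1, 2.76 with the deposited RPKM, 2.24 with counts under 3 set to 3 and 2.25 for the 50 transcripts with over 3 reads in H2O. With a pseudocount of 1 the median was 2.80 in Mt:H2O and 2.07 in NaCl:H2O, the median of NaCl+Mt:NaCl minus Mt:H2O was −3.23, and 1 transcript was at least 2-fold higher in NaCl+Mt:NaCl. Among the 50, 0 were higher by this limit there, and 25 were lower in NaCl+Mt:Mt. A larger pseudocount shrinks differences of low transcripts by construction, and for the other changes the cause was not tested. TMM scaling moved the median of all transcripts by 0.126 in NaCl:H2O and 0.117 in NaCl+Mt:Mt, and median-of-ratios scaling by 0.145 in NaCl:H2O. No paired analysis was possible because each condition had 1 library. With 3 reads or fewer in H2O, depth leaves the folds of 23 transcripts uncertain, and intervals or bounds are printed above for only some of them.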
